A study of Homo sapiens with 6 samples.

Results

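The DNAJ family encodes the J-domain proteins of classes A, B and C, also called HSP40 co-chaperones. Its members were taken by symbol, as every gene named DNAJA, DNAJB or DNAJC with a number and at most 1 further letter. This gave 45 of the 26485 genes counted, with 4 in class A, 13 in class B and 28 in class C. RNA-seq had been performed on THP1, an acute monocytic leukemia cell line, after 6 h with the steroidal lactone Withaferin A (WFA) or with its vehicle DMSO, with 3 libraries per group from 3 independent experiments. The WFA dose is 1 mM in the sample labels and 1 μM in the methods of the study. The labels name no genetic change in the cells of either group. The libraries held 11006035 to 13872810 counted reads each, and levels are given as CPM, a read count relative to the total of its library with TMM scaling. All 10 monocytic markers examined were expressed well enough to be tested, 1 of them rising and 5 falling with WFA, with a summed level of 2479 to 2993 CPM with DMSO and 2208 to 2975 CPM with WFA. Of 10 genes listed as markers of other cell types, 4 were tested, 2 of them rising and 1 falling, with a summed level of 357 to 403 CPM with DMSO and 319 to 337 CPM with WFA. PECAM1 made up most of that sum, and LYZ most of the monocytic sum, so each sum mainly follows a single gene. COL1A1 rose from 0.211, 0.316 and 0.833 CPM to 8.74, 8.54 and 12.6 CPM. CD3E, MS4A1 and PPBP, which mark T cells, B cells and platelets, were at 0 or 1 count in each library. The part of these markers in the results was not tested.

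J-domain proteins are the partners that bring HSP70 chaperones their work. The J domain, with its histidine-proline-aspartate motif, stimulates the ATPase of HSP70, and the rest of the protein selects the client or tethers HSP70 to a place such as the ER membrane or the import channel of mitochondria. Class A proteins carry the J domain, a glycine-rich linker and a zinc-binding region, class B proteins lack the zinc-binding region, and class C proteins share only the J domain. Several cytosolic members of classes A and B are known as heat shock genes, and several members of the ER lumen are known to be induced in the unfolded protein response.

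Promoters are shown for the 3 called members whose promoter window holds a heat shock element, the DNA motif that HSF1 binds, since several cytosolic members are known to carry it. The RefSeq promoters (GRCh38.p14) run from 250 bases before to 50 bases after 1 start per gene and were found for 40 of the 45 members, among them the 8 tested cytosolic members of classes A and B. That start is the outermost one annotated for 35 of the 40 members, while for DNAJB1, DNAJB5, DNAJC14, DNAJC19 and DNAJC28 it lies 31120, 545, 248, 64 and 315 bases inside the annotated gene, and their other starts were not searched. A run of 3 units on either strand, GAA, TTC and GAA with 2 bases between units, was in the promoters of DNAJA1 and DNAJB6 and in 0.49% of all 35116 promoters. This longer run was searched after seeing the data, and capitals mark it.
DNAJA1, chr9:33025023-33025322, plus strand: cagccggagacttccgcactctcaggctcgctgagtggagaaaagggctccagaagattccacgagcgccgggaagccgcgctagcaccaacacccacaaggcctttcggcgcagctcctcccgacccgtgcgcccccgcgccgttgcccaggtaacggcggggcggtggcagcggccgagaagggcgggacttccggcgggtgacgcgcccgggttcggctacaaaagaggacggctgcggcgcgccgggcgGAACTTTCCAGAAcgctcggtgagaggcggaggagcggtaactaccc
DNAJB6, chr7:157336754-157337053, plus strand: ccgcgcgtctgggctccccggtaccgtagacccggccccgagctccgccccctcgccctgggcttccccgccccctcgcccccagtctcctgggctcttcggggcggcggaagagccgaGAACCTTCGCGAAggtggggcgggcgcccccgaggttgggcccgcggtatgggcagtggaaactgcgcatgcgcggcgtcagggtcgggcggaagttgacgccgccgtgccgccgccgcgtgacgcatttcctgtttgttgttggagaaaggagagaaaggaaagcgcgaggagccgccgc
The run begins 3 bases after the start base of DNAJA1 and 131 bases before that of DNAJB6. The promoters of DNAJA2, DNAJA4, DNAJB1, DNAJB2, DNAJB4 and DNAJB5 held no such run, nor one with 1 mismatch among its 9 fixed letters, which says only that these letters are not in this window at the start used. With 1 mismatch, 4 of 40 member promoters and 6.24% of all promoters held a match. The shorter form of 2 units, GAANNTTC or TTCNNGAA, overlaps the longer run in DNAJA1 and DNAJB6. DNAJA1 also held the shorter form 198 bases before its start base, away from the longer run and not marked above. That stretch is part of a run with 1 mismatch that begins 203 bases before the start base. The shorter form was in 4 of 40 member promoters (10%) and in 13.5% of all promoters. The other two were DNAJB7, which was too low to be tested and is not shown, and DNAJC15, a mitochondrial member that fell, where capitals mark it.
DNAJC15, chr13:43023336-43023635, plus strand: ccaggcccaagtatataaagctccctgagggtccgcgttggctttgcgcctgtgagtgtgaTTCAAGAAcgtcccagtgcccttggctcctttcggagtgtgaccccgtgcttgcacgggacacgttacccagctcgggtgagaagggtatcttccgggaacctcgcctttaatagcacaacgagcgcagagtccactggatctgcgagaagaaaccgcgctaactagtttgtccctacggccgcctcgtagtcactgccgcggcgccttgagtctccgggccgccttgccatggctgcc
The ER stress element, CCAAT and CCACG on either strand with 9 bases between them, and the amino acid response motif TGATGNAAT were in 0 of 40 member promoters, beside 0.0769% and 0.991% of all promoters. At shares this low 0 of 40 is likely, and it says only that these letters are not in this window at the start used. The letters TGACGT, the core of the cAMP response element, were in 7 of 40 (17.5%) and in 7.98% of all promoters. By call they were in 2 of 13 members that rose, 2 of 9 that fell and 3 of 11 not called. The carriers were DNAJA2, DNAJB2, DNAJC4, DNAJC25, DNAJC27 and, of the ER lumen, DNAJB11 and DNAJC10.

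Of the 45 members, 37 passed the filter on low counts and 8 did not. In edgeR's quasi-likelihood test, with p-values adjusted over all genes and a threshold of 0.05, 14 of the 37 tested members rose and 9 fell with WFA. Over the 12854 genes tested, 25.8% rose and 24.7% fell, or 50.5% in either direction. Rises over 2-fold were found for 9 members, against 8.11% of all genes, and 1 member fell over 2-fold, against 5.2% of all genes. The median log2 change of the 37 members was 0.08, beside 0.02 over all genes. Class A had 2 of 3 tested members higher and 1 lower, and its median was 2.20. In class B, 7 of 9 were higher and 0 lower by edgeR, DESeq2 or an unadjusted p-value under 0.05, and the median was 2.25. In class C, 5 of 25 were higher and 8 lower, and the median was -0.11. No difference between classes or compartments was tested.

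By compartment, where the protein is known to act, the rises over 4-fold all lay in the cytosol. Each gene was placed in 1 compartment, and counts per gene do not separate isoforms whose proteins may lie in another. There 8 of 10 tested members rose and 1 fell, and the median log2 change was 2.26. In the ER lumen 3 of 4 rose and 1 fell (median 0.66), and in the ER membrane 2 of 6 rose and 1 fell (median 0.12). In mitochondria 2 of 4 fell (median -0.33), in the nucleus 1 of 3 (median -0.29) and at the ribosome 1 of 2 (median -0.25). With the replicate number as a block, 2 fell in the nucleus and 2 at the ribosome. Members that rose numbered 0 in these 3 compartments by edgeR, by DESeq2 and at an unadjusted p-value under 0.05. Of the 4 tested members of vesicles and endosomes 1 rose and 2 fell (median -0.26). Without the cytosolic members of classes A and B, 7 of the remaining 29 tested members were higher and 8 lower, with a median of -0.10. Both counts are near the shares over all genes tested, of which 25.8% rose and 24.7% fell. Mitochondria, nucleus and ribosome hold too few tested members to be set beside those shares.

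**Figure D1:**
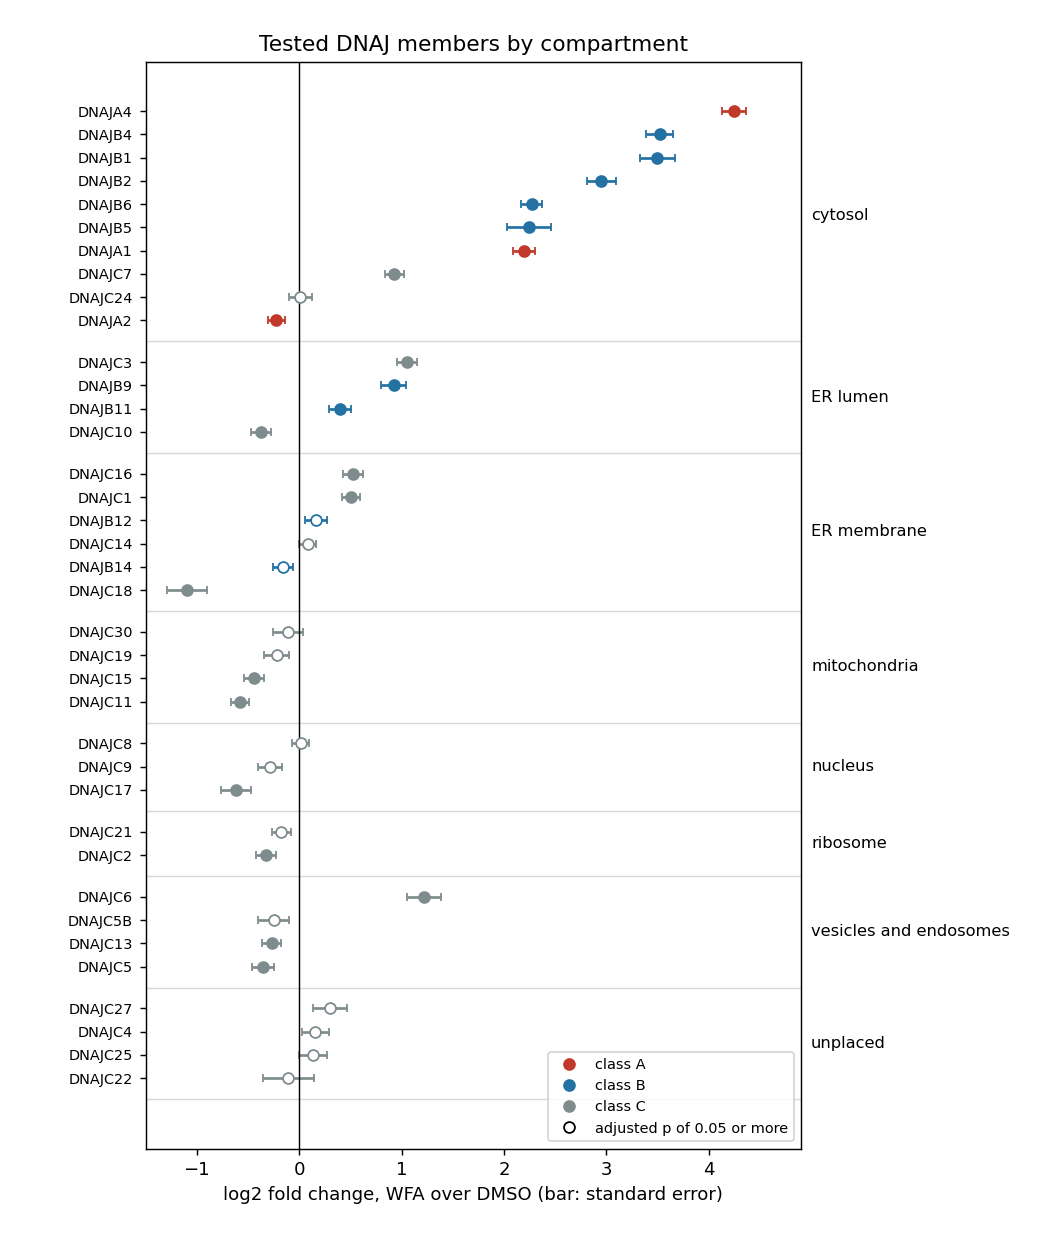
Log2 fold change (WFA over DMSO) of each of the 37 tested DNAJ members with its standard error, from 3 libraries per group, arranged by compartment and coloured by class. Filled points passed an adjusted p-value of 0.05 in edgeR's test, and the 7 points beyond 2 are cytosolic members of class A or B.

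The cytosolic members of classes A and B fold new and damaged proteins together with HSC70 and the inducible HSP70s. DNAJA4, a class A co-chaperone, had 119, 109 and 90.3 CPM in DMSO replicates 1, 2 and 3 and 2041, 1945 and 2055 CPM in WFA replicates 1, 2 and 3. The groups were far apart, and the 19.0-fold rise (log2 4.25, standard error 0.12, edgeR adjusted p = 4.33e-12) was the largest among the tested members and ranked 34 from the top of all genes tested. DNAJA1, a widely expressed class A partner of HSC70, went from 563, 486 and 458 CPM to 2372, 2156 and 2370 CPM. Its rise was 4.58-fold (log2 2.20, standard error 0.11, edgeR adjusted p = 8.66e-10), with no overlap of the groups. DNAJA2, the remaining cytosolic member of class A, had 138, 139 and 136 CPM with DMSO and 125, 119 and 109 CPM with WFA, a small fall (log2 -0.22, standard error 0.08, edgeR adjusted p = 0.035) without overlap. The call of DNAJA2 was lost when any library other than WFA replicate 1 was left out (edgeR adjusted p from 0.0551 to 0.125, log2 from -0.23 to -0.17).

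In class B, the 5 tested cytosolic members all rose over 4-fold. DNAJB1, the classical heat-inducible HSP40, had 188, 138 and 156 CPM with DMSO and 1455, 1628 and 2367 CPM with WFA. The WFA libraries were widely spread, with replicate 3 the highest, and the rise was 11.3-fold (log2 3.50, standard error 0.17, edgeR adjusted p = 9.82e-10). DNAJB4, a close relative of DNAJB1, rose 11.5-fold, from 12.6, 9.63 and 12.5 CPM to 129, 117 and 153 CPM (log2 3.52, standard error 0.13, edgeR adjusted p = 5.77e-11). DNAJB5, also of this group, was the lowest, at 3.10, 2.13 and 2.25 CPM with DMSO and 13.4, 9.18 and 13.3 CPM with WFA (log2 2.25, standard error 0.22, edgeR adjusted p = 7.91e-07). All 3 of these relatives thus rose, from very different levels. DNAJB2, which carries ubiquitin-binding motifs and passes clients to the proteasome, rose 7.74-fold, from 8.02, 7.74 and 7.25 CPM to 54.2, 52.9 and 71.7 CPM (log2 2.95, standard error 0.14, edgeR adjusted p = 7.15e-10). DNAJB6, known for keeping aggregation-prone proteins in solution, rose 4.83-fold, from 86.2, 72.3 and 67.3 CPM to 368, 349 and 374 CPM (log2 2.27, standard error 0.10, edgeR adjusted p = 4.17e-10). For each of these 5 genes the lowest WFA library lay above the highest DMSO library. DNAJB8, a relative of DNAJB6, was listed at 0 in each library.

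**Figure D2:**
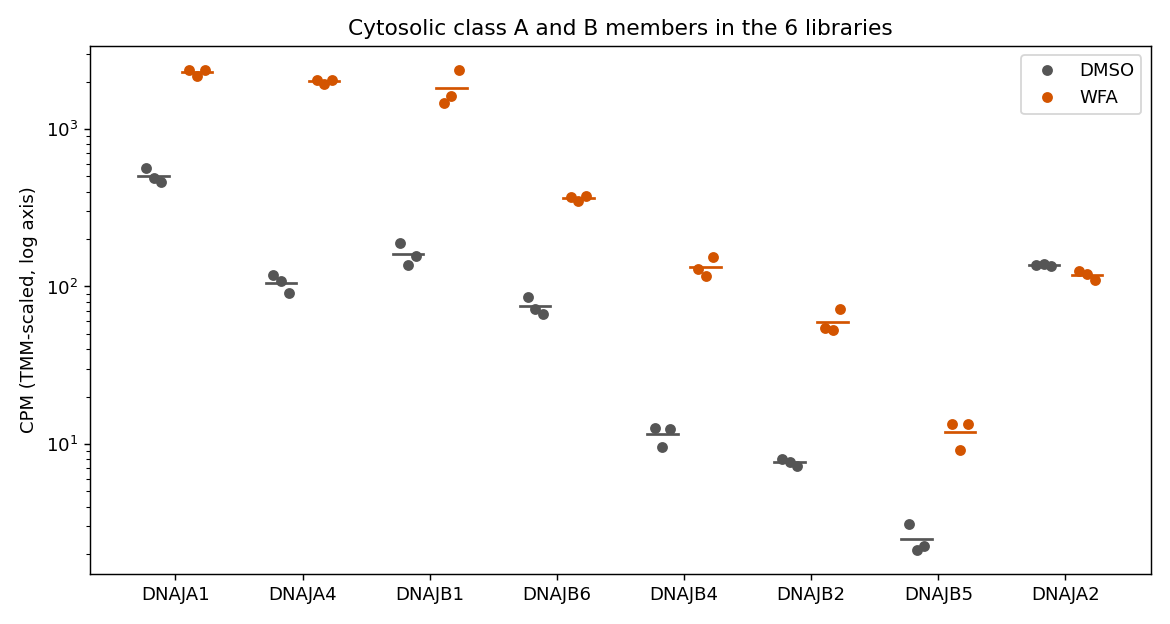
CPM (TMM-scaled, log axis) of the 8 tested cytosolic members of classes A and B in 3 DMSO and 3 WFA libraries, each point a library and each line a group mean. The groups are apart for each gene, with WFA below DMSO for DNAJA2 (118 against 138 CPM) and above it for the other 7.

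Of the cytosolic members of class C, DNAJC7, which binds both HSP70 and HSP90, rose 1.91-fold, from 208, 216 and 201 CPM to 416, 361 and 416 CPM (log2 0.93, standard error 0.09, edgeR adjusted p = 7.76e-07). DNAJC24, which serves the synthesis of diphthamide on elongation factor 2, had overlapping groups, at 32.8, 29.1 and 37.3 CPM with DMSO and 35.0, 32.9 and 32.2 CPM with WFA (log2 0.01, standard error 0.11, edgeR adjusted p = 0.937), and its sign turned with other scalings. DNAJC12, a co-chaperone of aromatic amino acid hydroxylases, had at most 2 counts in a library.

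The J-domain proteins of the ER lumen work with BiP, the HSP70 of the ER encoded by HSPA5. DNAJC3, also known as p58IPK, had 125, 117 and 131 CPM with DMSO and 289, 234 and 249.6 CPM with WFA, a 2.07-fold rise with no overlap (log2 1.05, standard error 0.10, edgeR adjusted p = 4.72e-07). DNAJB9, which restrains the stress sensor IRE1 and takes part in ER-associated degradation, went from 15.1, 15.3 and 15.6 CPM to 31.1, 24.8 and 31.5 CPM (log2 0.92, standard error 0.12, edgeR adjusted p = 2.25e-05). DNAJB11, a co-chaperone of BiP, rose by less, from 207, 179 and 179 CPM to 287, 217 and 238 CPM (log2 0.40, standard error 0.11, edgeR adjusted p = 0.0063). DNAJC10, a disulfide reductase of ER-associated degradation, moved the other way. Its levels were 187, 164 and 191 CPM with DMSO and 157, 132 and 128 CPM with WFA (log2 -0.38, standard error 0.10, edgeR adjusted p = 0.00513). So 3 of the 4 luminal members rose and the reductase fell, each with no overlap between groups.

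In the ER membrane, DNAJC1, which has its J domain in the lumen and binds BiP, rose from 58.2, 66.5 and 60.4 CPM to 90.5, 82.8 and 90.1 CPM (log2 0.51, standard error 0.09, edgeR adjusted p = 0.000231). DNAJC16 rose by a like amount, from 33.2, 34.0 and 38.2 CPM to 50.9, 49.5 and 51.7 CPM (log2 0.53, standard error 0.10, edgeR adjusted p = 0.000333). DNAJC18 had the largest fall among the tested members, 2.14-fold. Its levels were low, at 6.61, 6.63 and 7.50 CPM with DMSO and 2.94, 3.14 and 3.63 CPM with WFA (log2 -1.10, standard error 0.19, edgeR adjusted p = 0.000227), and the groups were apart. DNAJB12 and DNAJB14, a related pair that helps remove misfolded membrane proteins, did not pass the threshold, with log2 values of 0.16 and -0.16 (edgeR adjusted p = 0.204 and 0.197). DNAJC14 did not pass either (log2 0.08, edgeR adjusted p = 0.416).

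The members of mitochondria include parts of the import motor that pulls proteins into the matrix. DNAJC15, an inner membrane J protein of this motor, fell from 55.4, 60.6 and 57.7 CPM to 46.2, 42.2 and 39.5 CPM (log2 -0.44, standard error 0.10, edgeR adjusted p = 0.00132). DNAJC11, which associates with the complexes that shape the cristae, fell from 83.8, 83.5 and 89.8 CPM to 54.7, 56.6 and 61.2 CPM (log2 -0.58, standard error 0.09, edgeR adjusted p = 6.31e-05). Neither gene had overlapping groups. DNAJC19, the paralog of DNAJC15 in the import motor, did not pass (log2 -0.22, edgeR adjusted p = 0.151), nor did DNAJC30 (log2 -0.11, edgeR adjusted p = 0.574). DNAJA3, the class A member of the matrix, was listed at 0 in each library. A count of 0 allows up to 3 counts, or 0.216 to 0.273 CPM before TMM scaling, for counting error only, and whether reads could be assigned to this gene was not tested.

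In the nucleus, DNAJC17, a splicing-linked protein, fell from 11.6, 11.8 and 11.2 CPM to 7.52, 7.97 and 7.07 CPM (log2 -0.62, standard error 0.14, edgeR adjusted p = 0.00245), with the groups apart. DNAJC9, a chaperone of histones H3 and H4, had 47.3, 45.6 and 43.7 CPM with DMSO and 44.6, 34.1 and 33.2 CPM with WFA. WFA replicate 1 overlapped the DMSO libraries, and the difference lay just outside the threshold (log2 -0.29, standard error 0.12, edgeR adjusted p = 0.0513). It passed with the replicate block (log2 -0.30, edgeR adjusted p = 0.00518) and without WFA replicate 1 (log2 -0.44, edgeR adjusted p = 0.00389). DNAJC8, found in spliceosomes, had 218, 222 and 218 CPM with DMSO and 239, 210.4 and 216 CPM with WFA (log2 0.01, edgeR adjusted p = 0.907), and its sign turned with total counts in place of TMM. At the ribosome, DNAJC2, which works there with the HSP70 protein HSPA14, fell from 103, 101 and 123 CPM to 91.1, 80.9 and 89.3 CPM (log2 -0.32, standard error 0.10, edgeR adjusted p = 0.0111). That call was lost without DMSO replicate 3 (log2 -0.23, edgeR adjusted p = 0.0621). DNAJC21, a factor of large ribosomal subunit maturation, had 138, 136 and 141 CPM with DMSO and 140.3, 115 and 113 CPM with WFA, overlapping in WFA replicate 1. It did not pass (log2 -0.18, edgeR adjusted p = 0.137), whereas it did with the replicate block (log2 -0.18, edgeR adjusted p = 0.0451) and without WFA replicate 1 (log2 -0.28, edgeR adjusted p = 0.017).

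Among the members of vesicles and endosomes, DNAJC6, which encodes auxilin and strips clathrin coats with HSC70, rose 2.33-fold, from 8.09, 6.55 and 6.25 CPM to 17.9, 13.2 and 17.8 CPM (log2 1.22, standard error 0.17, edgeR adjusted p = 2.49e-05). DNAJC5, the cysteine string protein of secretory vesicles, fell from 178, 177 and 185 CPM to 120.4, 136 and 167 CPM (log2 -0.35, standard error 0.11, edgeR adjusted p = 0.0122). Its WFA libraries were spread widely, and without WFA replicate 1, the lowest, the call was lost (log2 -0.25, edgeR adjusted p = 0.0625). DNAJC13, an endosomal sorting protein, fell less (log2 -0.27, standard error 0.09, edgeR adjusted p = 0.0269). Its call was lost without DMSO replicate 1, DMSO replicate 3, WFA replicate 2 or WFA replicate 3 (edgeR adjusted p = 0.0673, 0.116, 0.106 and 0.0546), while the log2 value was -0.27, -0.20, -0.21 and -0.27. DNAJC5B, the paralog of DNAJC5, did not pass (log2 -0.25, edgeR adjusted p = 0.181), whereas it did with the replicate block (log2 -0.26, edgeR adjusted p = 0.0372) and without WFA replicate 2 (log2 -0.43, edgeR adjusted p = 0.0241).

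Of the 8 members placed in none of these compartments, 4 were tested and 0 passed by edgeR, by DESeq2 or at an unadjusted p-value under 0.05. DNAJC27 had 5.84, 6.32 and 5.83 CPM with DMSO and 6.62, 7.73 and 7.82 CPM with WFA (log2 0.30, standard error 0.17, edgeR adjusted p = 0.15), and each WFA library lay above each DMSO library. DNAJC4 had 16.1, 18.7 and 16.2 CPM with DMSO and 16.8, 21.2 and 18.8 CPM with WFA (log2 0.16, standard error 0.13, edgeR adjusted p = 0.34), with overlap. DNAJC25 (log2 0.14, edgeR adjusted p = 0.43) and DNAJC22 (log2 -0.10, edgeR adjusted p = 0.75) overlapped too. DNAJB3 and DNAJC28 were listed at 0 in each library, while DNAJB7, DNAJB13 and, of the vesicle members, DNAJC5G had at most 3, 2 and 1 counts in a library. Antisense genes are named after some members, and without a stated use of strand their reads cannot be told apart from the member's. The antisense row of DNAJC27 held 13 to 21 counts with DMSO and 29 to 35 with WFA, beside 70 to 83 and 81 to 96 for the gene. That of DNAJC3 held 81 to 112 and 116 to 136 counts, beside 1476 to 1778 and 2682 to 3534.

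With the rises, DNAJB1 and DNAJA4 joined DNAJA1 at the highest levels of the family. Per length, as CPM per kb of transcript, the highest mean levels with DMSO were those of DNAJA1 at 211, DNAJC8 at 125, DNAJC7 at 118, DNAJC10 at 108, DNAJB11 at 92.1 and DNAJB1 at 90.4. Over the 3 DMSO libraries DNAJC7 ran from 114 to 122 per kb, DNAJC10 from 98.3 to 114, DNAJB11 from 87.4 to 101 and DNAJB1 from 77.5 to 106. DNAJC7 and DNAJC10 overlapped, and so did DNAJC10, DNAJB11 and DNAJB1 with each other, so these neighbours cannot be ordered. The length used for DNAJC10 was 1669 bases, a median over annotated transcripts, and a longer one would lower its place. With WFA the highest mean levels per kb were those of DNAJB1 at 1023, DNAJA1 at 966, DNAJA4 at 680.1, DNAJB6 at 263 and DNAJC7 at 224. DNAJB1, at 819 to 1333 per kb, overlapped DNAJA1, at 905 to 996, whereas DNAJA4, at 657 to 694, lay below both. Together DNAJA1, DNAJA4 and DNAJB1 made up 23.9% to 27.6% of the members' summed level per kb in the DMSO libraries and 63.4% to 68.6% in the WFA libraries. The share of DNAJA2 was 3.19% to 3.45% with DMSO and 0.795% to 1.01% with WFA. Its own mean level went only from 44.1 to 37.7 per kb, so the share fell mainly because the summed level rose. Without scaling by length, the members took 0.306% to 0.330% of counted reads with DMSO and 0.833% to 0.962% with WFA. Cytosolic members summed to 1245 ± 100.2 CPM (SD, n = 3) with DMSO and 7247 ± 630.2 CPM (SD, n = 3) with WFA. All other members summed to 1851 ± 40.2 CPM (SD, n = 3) with DMSO and 1914 ± 115 CPM (SD, n = 3) with WFA.

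**Figure D3:**
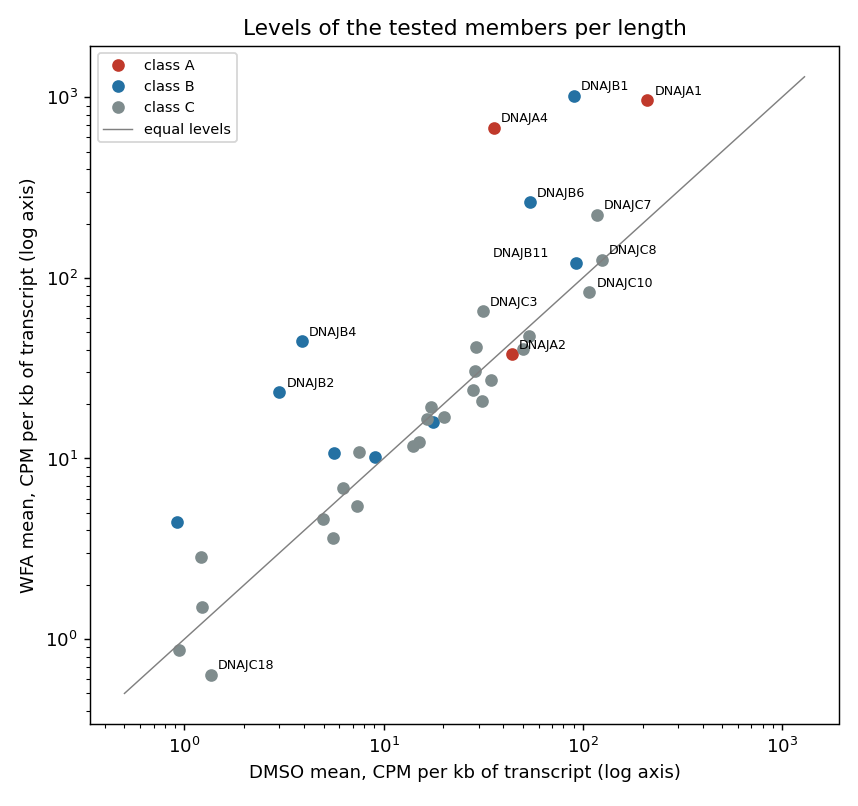
Mean level of each of the 37 tested members in 3 DMSO libraries (x axis) and 3 WFA libraries (y axis), as CPM per kb of transcript on log axes, coloured by class, with a line of equal levels. DNAJB1, DNAJA1 and DNAJA4 are the highest on the WFA axis, at 1023, 966 and 680.1 CPM per kb, and most class C members lie near the line.

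Each WFA library was also set against the DMSO library of its own experiment. None of the 23 called members had overlapping groups, and so each moved in the direction of its call in each of the 3 experiments. The 23 were called from these same libraries, so this describes them and gives no further support to the calls. Over the 37 tested members, 16 had each WFA library above each DMSO library, where 29.6% of all genes did, and 10 had each one below, where 28.5% did. An exact permutation test of 3 libraries against 3 cannot give a p-value under 0.1. DNAJB1 differed most between experiments among the called members, with log2 ratios of 2.95, 3.56 and 3.93 in experiments 1, 2 and 3. For DNAJA4 the ratios were 4.10, 4.16 and 4.51, and for DNAJC11, the closest together, -0.62, -0.56 and -0.55.

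**Figure D4:**
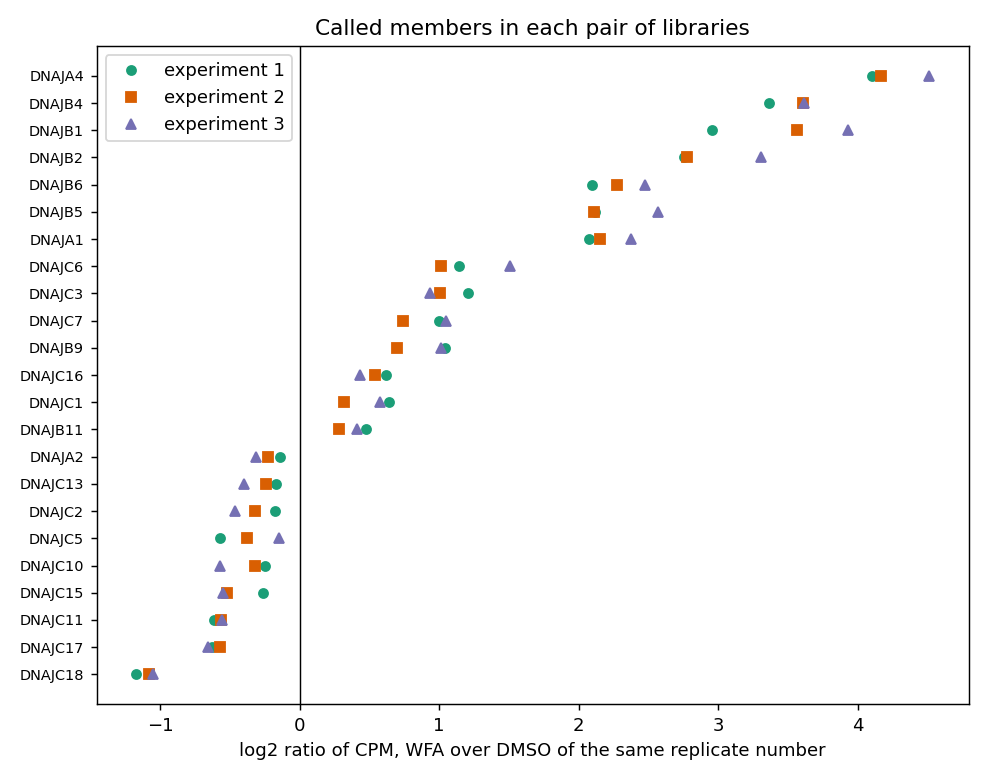
Log2 ratio of CPM, WFA over DMSO of the same replicate number, for the 23 members that passed an adjusted p-value of 0.05, with 1 symbol per experiment. The 3 symbols of each gene lie on the same side of 0, which follows from groups that do not overlap in the libraries that gave the calls. Those of DNAJB1 are the farthest apart, from 2.95 to 3.93.

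The partners of the J-domain proteins were examined by lists, beside all genes tested, of which 25.8% rose and 24.7% fell. Of 12 HSP70 genes 8 were tested, and 7 rose and 1 fell, with a median log2 change of 0.95. HSPA8 encodes HSC70, the main cytosolic partner of the family, and had 3913, 3419.9 and 2880.3 CPM with DMSO and 10037, 9404 and 10570.2 CPM with WFA (log2 1.56, standard error 0.13, edgeR adjusted p = 1.44e-07). HSPA6, a strictly inducible HSP70, went from 1.13, 0.632 and 1.75 CPM to 313, 424 and 652 CPM (log2 8.63, standard error 0.32, edgeR adjusted p = 5.77e-11). HSPA1B also rose (log2 4.45, standard error 0.23, edgeR adjusted p = 1.39e-09), but it shares reads with its near-identical copy HSPA1A, so its value is uncertain. HSPA5, the partner in the ER lumen, rose (log2 0.62, standard error 0.11, edgeR adjusted p = 0.000248), as did HSPA9, the partner in mitochondria (log2 0.34, standard error 0.10, edgeR adjusted p = 0.00829). HSPA14, the partner of DNAJC2, fell (log2 -0.23, standard error 0.09, edgeR adjusted p = 0.0464), a call that DESeq2 did not make and that was lost without any library other than WFA replicate 1.

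Nucleotide exchange factors reset HSP70 after a J-domain protein has acted on it. All 13 were tested, and 7 rose and 2 fell (4 with the replicate block), with a median of 0.35. Of all genes tested, 25.8% rose and 24.7% fell. BAG3, which links HSP70 to autophagy, had 17.7, 18.4 and 17.7 CPM with DMSO and 294, 364 and 399 CPM with WFA (log2 4.29, standard error 0.12, edgeR adjusted p = 4.33e-12). HSPH1 (log2 2.93, standard error 0.12, edgeR adjusted p = 1.84e-10) and HSPA4L (log2 2.42, standard error 0.13, edgeR adjusted p = 2.33e-09), both of the HSP110 kind that dissolves aggregates with DNAJB1, rose as well. The mitochondrial exchange factor GRPEL1 fell (log2 -0.54, standard error 0.09, edgeR adjusted p = 0.000162). Of 5 adaptors and ligases 2 rose, with a median of 0.19, namely STIP1, which joins HSP70 to HSP90 (log2 1.80, standard error 0.10, edgeR adjusted p = 3.3e-09), and ST13, which slows the release of clients (log2 1.48, standard error 0.09, edgeR adjusted p = 1.1e-08).

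Of 10 partner genes of the ER lumen and membrane 2 rose, with a median of 0.17. That count is not above the share of all genes that rose, 25.8%. The 2 genes were SYVN1 (log2 0.82, standard error 0.10, edgeR adjusted p = 5.93e-06) and HERPUD1 (log2 0.68, standard error 0.09, edgeR adjusted p = 1.79e-05), which both serve ER-associated degradation. With the replicate block 3 rose, the addition being SDF2, part of a complex with DNAJB11, which lay just outside the threshold without the block (log2 0.25, standard error 0.10, edgeR adjusted p = 0.0539) and passed with it (log2 0.25, edgeR adjusted p = 0.025). Of 6 genes of the mitochondrial import motor and channel 5 were tested and 3 fell, where 24.7% of all genes did, with a median of -0.41. TIMM23, the channel itself, fell most (log2 -0.80, standard error 0.11, edgeR adjusted p = 3.18e-05), followed by TIMM50 (log2 -0.44, standard error 0.10, edgeR adjusted p = 0.00238) and TIMM17A (log2 -0.41, standard error 0.10, edgeR adjusted p = 0.00273). TIMM44 and TIMM17B did not pass (log2 0.16 and 0.23, edgeR adjusted p = 0.203 and 0.167). PAM16, the partner of DNAJC19, was listed at 0 in each library. The 4 J-domain proteins under other names had a median of -0.09. Of these, HSCB, which serves iron-sulfur cluster assembly in mitochondria, lay just outside the threshold (log2 0.42, standard error 0.17, edgeR adjusted p = 0.0512) and passed with the replicate block (log2 0.42, edgeR adjusted p = 0.0277).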

How the data were processed

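RNA was made into TruSeq RNA v2 libraries. The submitters' processing notes name bcl2fastq 2.19, Trimmomatic, Bowtie2, Picard, featureCounts and DESeq2 and the hg38 build, while their settings, the annotation and the use of strand are not given in the sources used here. The authors deposited whole-number read counts per gene, which alone were used. The authors also deposited, in the same table, size-factor scaled values (a score) and their own comparison as a linear ratio, a log2 fold change and a p-value per gene.
The 26485 genes were fitted in edgeR 4.0.16 (R 4.3.3) by its quasi-likelihood method without a block, after TMM scaling and filterByExpr (minimum count 10), and p-values were adjusted by Benjamini-Hochberg over the 12854 genes kept. A standard error is the absolute log2 fold change over the square root of F. The code was tested on simulated counts. Alternatives were a replicate block, DESeq2 1.42.0, other scalings and filters, a robust fit, a test against a fold of 1.5 and leaving out each library. Same-numbered libraries carry the same code in their labels, and their deviations from the group means correlated across genes at 0.217, 0.333 and 0.245, so the number pairs them. No pair of libraries in a group was a duplicate. P-values measure the spread between 3 experiments on 1 cell line.
Promoters are RefSeq's, and lengths are the median over basic coding transcripts of GENCODE 29, so levels per kb depend on which isoforms are annotated. The members and lists were chosen with earlier results of these data known. By rule, each library's value is given for called members with an absolute log2 fold change over 0.58 and for the 2 members of smallest p in each compartment, and each partner list is named by up to 3 called genes of smallest p and 1 against its majority. Further per-library values, HSPA5, HSPA9, SDF2, TIMM44, TIMM17B and HSCB were chosen after their values were seen. Protein sequences were not used here, and a named result of the list of J-domain proteins under other names is not reported here.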

Additional observations from a re-analysis of the deposited data

How the results depend on the processing

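With each library left out in turn, 14 members rose each time and 6 to 10 fell, against 14 and 9 with all libraries. The replicate block gave 14 higher and 12 lower, adding 3 calls and losing 0. Of the 37 tested members, 18 kept direction and side of the threshold under each alternative run. The test against a fold of 1.5 asks for a larger change by construction and left 11 members higher and 1 lower. Under it, class C had 3 higher and 1 lower, the ER membrane 0 higher and the ER partners 1 higher, and 0 were lower in class A, the cytosol, the ER lumen, mitochondria, the nucleus, the ribosome, vesicles and endosomes, the HSP70 proteins, the exchange factors and the import motor. Over all genes it left 1114 higher and 812 lower. Scaling by total counts moved the median of all genes to -0.063, and gave medians of 9.93e-05 for the family, -0.42 for mitochondria, 0.061 for unplaced members, -0.34 for vesicles and endosomes, 0.10 for the adaptors, -0.18 for J-domain proteins under other names and 0.082 for the ER partners. Total counts and the replicate block each gave 2 lower in the nucleus, 2 at the ribosome and 4 lower exchange factors, and RLE normalization, no filter and the robust fit also gave 2 in the nucleus. HSP70 proteins had 0 lower with DESeq2, no filter or a minimum count of 50. J-domain proteins under other names had 1 higher with the replicate block, upper-quartile normalization or a minimum count of 50. With each library left out, those lower numbered 0 to 1 in class A and in the cytosol, 1 to 2 in vesicles and endosomes, 1 to 2 in the nucleus, 0 to 2 at the ribosome, 0 to 1 among HSP70 proteins and 1 to 3 among exchange factors. The medians ran from -0.21 to -0.092 in class C, -0.30 to -0.21 in vesicles and endosomes, 0.16 to 0.27 for the adaptors, -0.13 to -0.076 for J-domain proteins under other names and 0.11 to 0.20 for the ER partners. Signs turned only for members that were not called. DNAJC24 was at -0.00128 with DESeq2, -0.00114 with RLE normalization, -0.074 with total counts and -0.00073 with no filter, and DNAJC8 at -0.072 with total counts. With each library left out, DNAJC24 ran from -0.083 to 0.10, DNAJC8 from -0.042 to 0.051, DNAJC22 from -0.26 to 0.029 and DNAJC30 from -0.24 to 0.011. The cause was not tested. Depth leaves members with at most 3 counts without a comparison.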
